A study of Homo sapiens with 12 samples.

Results

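H3K27ac regions of the short and the long arm of chromosome 19 were compared between the human kidney cancer line Caki-1 and a line made from it that resists cabozantinib. Peaks of 4 H3K27ac libraries that overlapped by 1 bp or more were merged into regions in hg19. Chromosome 19 held 2202 of the 89076 regions. Those starting below 24 Mb formed the 19p set of 1158 regions, and those starting at 28 Mb or more formed the 19q set of 1041. A further 3 regions lay between these limits. Together the arms hold 2199 regions, all of which are accounted for here. The arms were selected on the gained, lost and shared regions and peak scores of these same lists, so counts and scores of peaks are a description and were not tested. RNA, which played no part in the choice of regions, was tested.

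The parental group is Caki-1 as obtained, kept in RPMI 1640 medium, with no drug named for it. The resistant group was selected in McCoy's 5A medium with cabozantinib from 5 µM, raised within 2 months to 20 µM, and was then kept in 10 µM. Cabozantinib inhibits several receptor tyrosine kinases, among them MET and AXL. The drug, its selection and the culture medium all separate the lines and cannot be told apart. The labels do not say whether the resistant line is 1 clone or a pool, nor whether replicates were separate cultures, so p-values measure only the spread between these libraries, which may be technical. Each line gave 2 H3K27ac, 2 RNA and 2 DNA input libraries, 12 in all, and the inputs were not analysed here.

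Acetylation of lysine 27 on histone H3 marks active promoters and enhancers, and a peak is a stretch where the mark was called above its surroundings. Chromosome 19 is dense in genes. Its long arm carries AXL, a receptor tyrosine kinase that binds GAS6 and is among the targets of cabozantinib, and large clusters of zinc finger genes, most of which encode repressors. The short arm carries many housekeeping and signalling genes and a zinc finger cluster next to the centromere.

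The peak lists held between 52367 and 57975 peaks per library, and the RNA libraries between 10584083 and 14664723 estimated counts. PAX8, a transcription factor found in renal epithelium among other tissues, stood at 557 and 572 CPM (normalised counts scaled to a common library size) in parental cells. In resistant cells it stood at 352 and 427. PAX2, looked up with it, was not among the genes tested. The epithelial keratins KRT8 (378 and 366 against 253 and 461) and KRT18 (233 and 228 against 206 and 358) overlapped between the lines, with resistant replicate 2 highest. PTPRC, the leukocyte marker CD45, had 0 or 1 estimated count in each of the 4 RNA libraries.

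No hg19 genome was used here, so sequences of the regions are not shown. RefSeq promoters (GRCh38.p14, 250 bases before to 50 after the gene's start) are shown for 3 genes: AXL, the receptor by which the long arm is placed, and S1PR5 and CCDC106, the largest rise on 19p and the largest fall on 19q in RNA under the naming rule. Where a gene has several starts, the one listed first is shown. Capitals mark the GC box GGGCGG, searched on both strands (CCGCCC on the other), a motif known to bind factors of the SP and KLF families. In the GRCh38.p14 build, which is not comparable with the hg19 positions of the regions, they lie at chr19:41218973-41219272 on the plus strand, chr19:10517916-10518215 on the minus strand and chr19:55647150-55647449 on the plus strand.
AXL: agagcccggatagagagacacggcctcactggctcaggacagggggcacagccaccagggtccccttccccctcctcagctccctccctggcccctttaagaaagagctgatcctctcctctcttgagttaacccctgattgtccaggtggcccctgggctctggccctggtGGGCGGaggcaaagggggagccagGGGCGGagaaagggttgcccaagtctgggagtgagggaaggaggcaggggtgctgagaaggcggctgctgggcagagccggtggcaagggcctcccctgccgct
S1PR5: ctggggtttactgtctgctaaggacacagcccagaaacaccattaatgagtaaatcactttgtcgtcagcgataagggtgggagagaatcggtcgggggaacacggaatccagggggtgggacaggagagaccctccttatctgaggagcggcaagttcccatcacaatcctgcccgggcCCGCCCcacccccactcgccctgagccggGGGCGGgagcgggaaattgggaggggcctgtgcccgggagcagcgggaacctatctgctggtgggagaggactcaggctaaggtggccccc
CCDC106: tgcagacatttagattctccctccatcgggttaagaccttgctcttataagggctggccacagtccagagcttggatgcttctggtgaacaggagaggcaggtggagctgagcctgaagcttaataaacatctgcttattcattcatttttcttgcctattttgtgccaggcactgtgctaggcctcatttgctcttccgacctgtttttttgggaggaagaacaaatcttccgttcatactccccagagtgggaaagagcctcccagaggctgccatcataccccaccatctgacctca
The AXL promoter holds 2 GC boxes, that of S1PR5 holds 2, and in the CCDC106 window these letters do not occur. This depends on the start: the second listed AXL promoter holds 0, and of 4 CCDC106 promoters 1 holds 1 and another holds 2. Of all 35116 RefSeq promoters, 45.0% hold at least 1, against 79.1% of those of tested 19p genes and 69.1% of those of tested 19q genes. The first share includes genes that were not tested in RNA, so the gap cannot be read as a trait of chromosome 19. The share for tested genes of all chromosomes was not computed. A match is a description of the letters and not a binding site.

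On 19p, regions gained in the resistant line outnumbered lost ones, and on 19q the reverse held. A region counted as gained had a peak in both resistant libraries and in neither parental one, a lost region the reverse, and a shared region had a peak in all 4. On 19p 73 regions were gained (6.3%), 22 lost (1.9%) and 363 shared (31.3%). On 19q 13 were gained (1.25%), 61 lost (5.86%) and 315 shared (30.3%). Over all chromosomes 3.43% of regions were gained, 3.92% lost and 22% shared. Taken whole, chromosome 19 had 86 gained and 83 lost regions, close to even, because the arms run in opposite directions. In a population of cells, a region in fewer cells and a weaker mark per cell cannot be told apart.

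Among the other 22 chromosomes, the gained share ran from 2.04% to 6.62% and the lost share from 1.77% to 6.47%. The gained share of 19q lay below all 22 of them, and 2 had a higher lost share. For 19p, 1 chromosome, chromosome 22, had a higher gained share, and 19 had a higher lost share. There were 3.32 gained regions per lost region on 19p and 0.213 on 19q, against a range of 0.315 to 3.63 on the other chromosomes. Each arm thus stood near or past 1 end of the range spanned by whole chromosomes. Both arms had a higher share of shared regions than any of the other 22, whose highest was 28.4%.

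**Figure D1:**
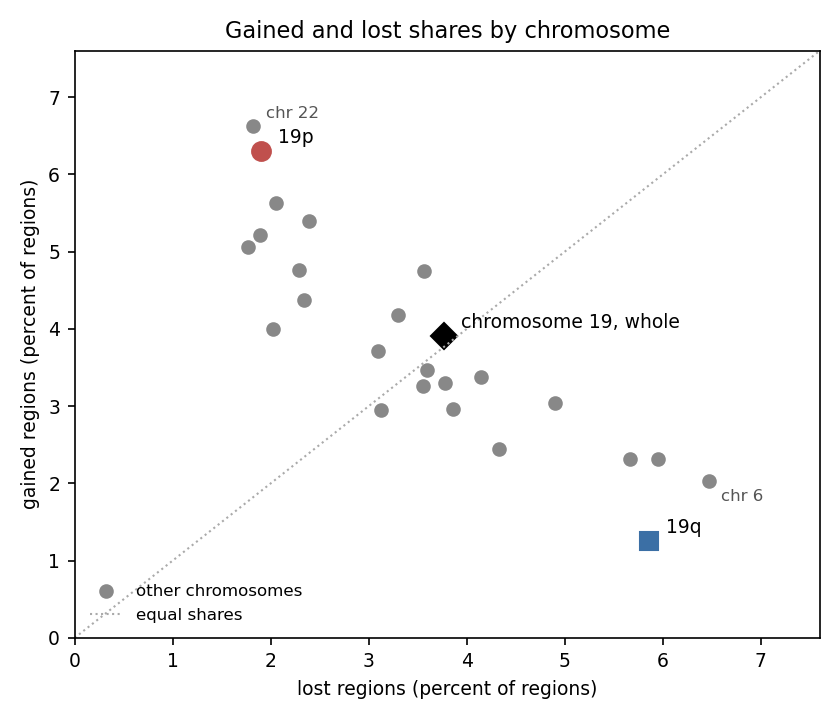
Share of regions gained (vertical axis, percent) against share lost (horizontal axis, percent) for each chromosome and for the arms of chromosome 19; the dotted line marks equal shares. The whole of chromosome 19 sits near the line at 3.91% gained and 3.77% lost, while 19p lies at 6.3% and 1.9% and 19q at 1.25% and 5.86%.

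The same tilt was present in single libraries. On 19p there were 764 peaks in parental replicate 1, 587 in parental replicate 2, 984 in resistant replicate 1 and 746 in resistant replicate 2. On 19q the numbers were 866, 709, 649 and 610 in that order. Both parental libraries had more peaks on 19q than on 19p, and both resistant libraries had fewer. The number on 19q divided by that on 19p was 1.13 and 1.21 in parental libraries and 0.660 and 0.818 in resistant ones, so the lines did not overlap in this ratio. As shares of the list, 19p took 1.39% and 1.01% of parental peaks and 1.88% and 1.41% of resistant ones, and 19q took 1.58% and 1.22% against 1.24% and 1.15%. In these shares the lines did not overlap on 19p but did on 19q, where resistant replicate 1 stood above parental replicate 2. In raw peak numbers it was 19p that overlapped, since resistant replicate 2 had fewer peaks there than parental replicate 1.

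Measured as length under peaks, 19p had 762 kb and 766 kb in parental libraries and 924 kb and 1175 kb in resistant ones. On 19q the length was 902 kb and 958 kb against 514 kb and 860 kb. On both arms the lines did not overlap in this length. Peaks were wider in the second replicate of each line, with a median over the whole list of 924 bp and 1041 bp against 674 bp and 604 bp in the first. Per megabase, 19p held 31.8, 24.5, 41 and 31.1 peaks in the same order of libraries, and 19q held 27.9, 22.8, 20.9 and 19.6.

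Regions with a peak in just 1 library made up 41.9% of those on 19p and 40.3% of those on 19q. On 19p a single parental library held 131 of them (86 in replicate 1 and 45 in replicate 2) and a single resistant library 354 (238 and 116). On 19q a single parental library held 297 (174 and 123) and a single resistant library 123 (62 and 61). Each parental library alone held more regions on 19q than on 19p, and each resistant library alone held more on 19p than on 19q. Resistant replicate 1 stood apart on 19p with 238 regions of its own. It was also the library most often missing on 19q, where 89 regions had peaks in the other 3 libraries, against 26 such regions on 19p. Regions found in all but parental replicate 2 numbered 66 on 19p and 28 on 19q. Those in all but parental replicate 1 numbered 28 and 18, and those in all but resistant replicate 2 numbered 11 and 19. A further 84 regions on 19p and 78 on 19q were held by 1 library of each line.

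Gained and lost counts rose when a library was left out, and the rule allows only a rise. The line that lost a library then needs to hold or lack a peak in only 1 list. The rise itself is thus no measure of stability, and only the balance of gained and lost regions is read here. Without parental replicate 2, 19p had 101 gained and 108 lost regions, the only 1 of 9 alternatives in which gained regions did not outnumber lost ones there. With the other libraries left out, 19p had 139 gained and 67 lost without parental replicate 1, 189 and 33 when resistant replicate 1 was dropped, and 311 and 48 when resistant replicate 2 was. On 19q lost regions outnumbered gained ones in all 9 alternatives, though narrowly without resistant replicate 1, at 74 gained and 80 lost. The other counts there were 41 and 184 without parental replicate 1, 31 and 235 without parental replicate 2, and 75 and 150 without resistant replicate 2.

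**Figure D2:**
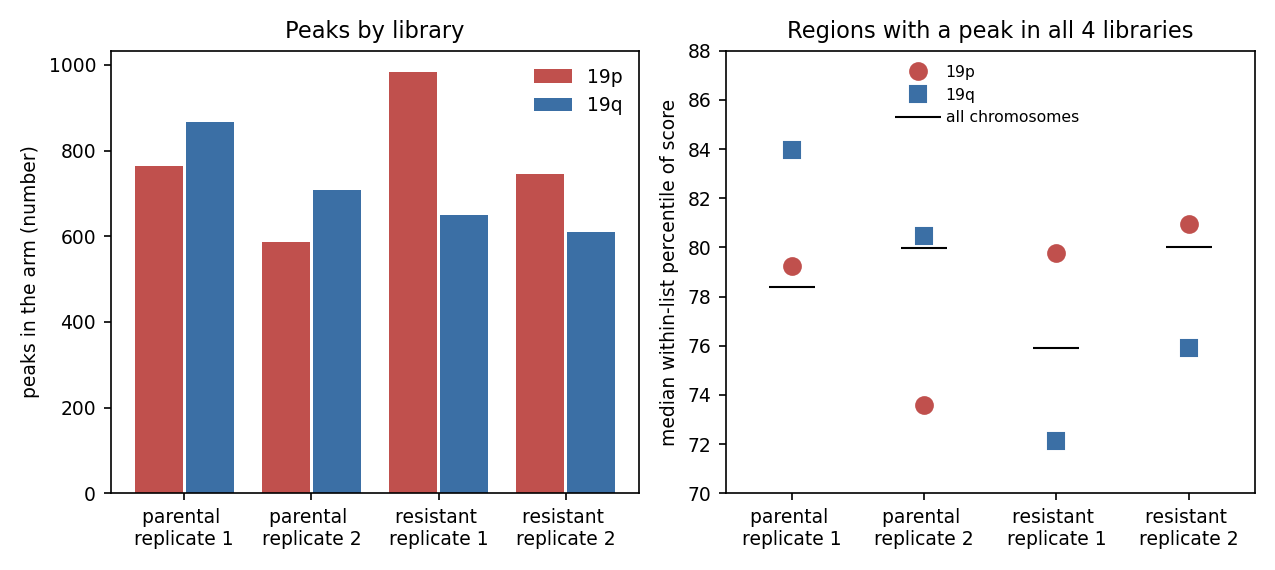
Left, number of peaks on 19p and 19q in each H3K27ac library; right, the median within-list percentile of score (axis from 70 to 88) of regions with a peak in all 4 libraries, 363 on 19p and 315 on 19q, with a dash for such regions of all chromosomes. In both panels 19q stands above 19p in the 2 parental libraries and below it in the 2 resistant ones.

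Each peak carries the authors' score, whose unit is not given in the sources used here, so scores were read only within a list. A peak's percentile is the share of its own list with an equal or lower score. The median peak of 19p stood at percentile 61.5, 59.5, 52.8 and 61.7 in parental replicates 1 and 2 and resistant replicates 1 and 2. That of 19q stood at 61.3, 62.3, 52.8 and 59.3. Over all peaks of an arm the medians of 19p and 19q lay at most 2.83 percentiles apart. With only peaks of score 5 or more the gap was wider in the resistant lists, at 53.4 on 19p and 48.9 on 19q in resistant replicate 1 and 58.2 and 54.1 in resistant replicate 2. In resistant replicate 1 many peaks share a score, and the median peak of both arms had the same one, 6.44.

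In the shared regions, which are the same regions in every list, the arms did differ in order. Their median percentile in the parental libraries was 79.3 and 73.6 on 19p and 84.0 and 80.5 on 19q. In the resistant libraries it was 79.8 and 80.9 on 19p and 72.1 and 75.9 on 19q. Long-arm regions ranked higher by 4.72 and 6.87 percentiles in the parental lists and lower by 7.67 and 5.05 in the resistant ones. For shared regions of all chromosomes the medians were 78.4, 79.99, 75.9 and 80.02. Against these medians 19q stood above in both parental lists and below in both resistant ones. On 19p only parental replicate 2 stood below, at 73.6, and parental replicate 1 stood above, as did both resistant lists. The tilt between the arms was thus also seen in regions that both lines kept, with the lines separated against these medians on 19q only.

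Gained and lost regions were narrower than shared ones and ranked lower by their worse percentile. Gained regions of 19p had a median width of 995 bp (411 to 4224) and lost regions of 19q one of 909 bp (383 to 4391), while shared regions had medians of 2021 bp and 2129 bp. Taking for each region the worse of its percentiles in the libraries that hold it, the median was 28.1 for gained regions of 19p and 31.1 for lost regions of 19q. It was 15.03 for lost regions of 19p and 27.7 for gained regions of 19q. Over all chromosomes it was 24.4 for gained and 24.2 for lost regions, and for shared regions it was 59.5 on both arms. The worse percentile is a minimum over 2 libraries for gained and lost regions and over 4 for shared ones. It is low by construction and does not place a typical region within a single list. A region also takes its best peak in each list, and wider regions can hold more peaks.

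Along 19p, gained regions outnumbered lost ones in 9 of 12 windows of 2 Mb, lost ones led in 2 and 1 was even. The 2 windows led by lost regions, with 1 lost and 0 gained each, are the 2 next to the centromere, from 20 to 24 Mb, which hold 8 and 4 regions. Along 19q, lost regions led in 12 of 16 windows, 3 were even, and gained ones led in 1, from 52 to 54 Mb, with 4 gained and 2 lost. In number of peaks, both parental libraries exceeded both resistant ones in 6 of the 16 windows of 19q and in 0 of the 12 of 19p. Both resistant libraries exceeded both parental ones in 3 windows of 19p and 0 of 19q.

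Within each arm 1 window stood out. From 10 to 12 Mb 22 of 158 regions were gained and 2 lost, which is 30.1% of the gained regions of 19p. From 46 to 48 Mb 19 of 178 regions were lost and 1 gained, 31.1% of the lost regions of 19q. In the latter window the parental libraries had 130 and 122 peaks and the resistant ones 86 and 83. In the window from 10 to 12 Mb they had 84 and 74 against 150 and 103.

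**Figure D3:**
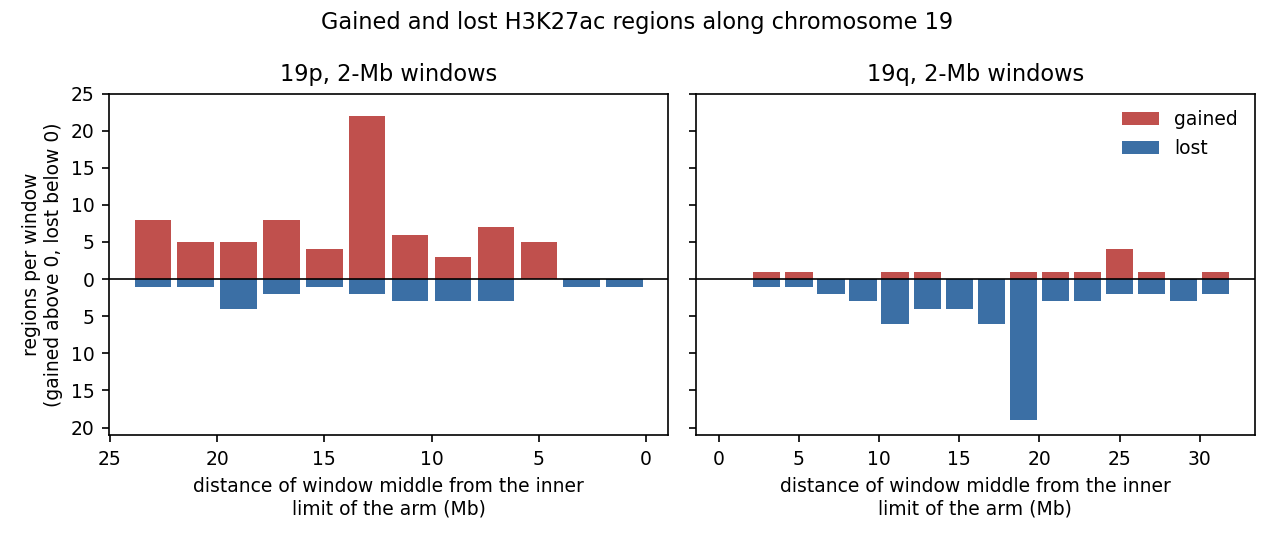
Gained regions (above 0) and lost regions (below 0) in 2-Mb windows, by the distance in Mb of the window's middle from the inner limit of its arm, 19p left and 19q right. Gained regions lead over most of 19p, with 22 in the window centred 13 Mb from its limit, and lost regions over most of 19q, with 19 in the window centred 19 Mb from its limit.

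The gained regions of 19p were packed most densely in a stretch of 59.7 kb at chr19:10832199-10891945. It holds 14 regions, of which 10 were gained, 3 shared, 0 lost and 1 found in resistant replicate 1 alone. Scores of the 10 gained regions ran from 2.94 to 15.4 in resistant replicate 1 and from 2.99 to 24.2 in resistant replicate 2. The 3 shared regions between them ranked higher in both resistant lists than in both parental ones. The first, chr19:10840153-10846554, stood at percentiles 27.8 and 50.3 of the parental lists and 95.3 and 90.6 of the resistant lists. The second, chr19:10857665-10862516, stood at 39.0 and 11.5 against 68.3 and 76.2. The widest, chr19:10864531-10882365, stood at 77.8 and 75.9 against 92.3 and 95.8. On the other 22 chromosomes, 1 reached 10 gained regions starting within 100 kb. The lost regions of 19q had no such stretch, with at most 4 starting within 100 kb, at chr19:47392328-47417831.

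The strongest gained region of 19p by the worse of its percentiles lay in that stretch, at chr19:10847281-10850624, with resistant scores of 15.4 and 24.2. It stood at percentiles 86.8 and 85.7 of the resistant lists. The next were chr19:9168610-9172689 with scores of 16.1 and 21.96 and chr19:11428603-11432826 with 10.8 and 18.3. They were followed by chr19:12606291-12606733 (9.42 and 16.6) and chr19:17716669-17717246 (12.1 and 13.1). The 3 strongest are between 3344 and 4224 bp wide, several times the median of their class.

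Lost regions of 19p were weaker apart from 1. At chr19:13123109-13124797 the parental scores were 19.5 and 9.77, at percentiles 87.0 and 70.2. The other 4 of the strongest 5, at chr19:8489149-8489717, chr19:14560505-14561913, chr19:14526517-14528012 and chr19:4969218-4969863, had parental scores between 4.99 and 7.18.

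On 19q the strongest lost region was chr19:56159082-56160124, with parental scores of 31.4 and 25.4 at percentiles 94.7 and 93.3. The second, chr19:41945404-41945915, had scores of 24.4 and 20.5 at percentiles 91.1 and 89.7. The others were chr19:36908905-36909946 (14.5 and 12.9), chr19:46635792-46637609 (10.5 and 11.4) and chr19:54523511-54525384 (8.33 and 12.6). The third stood at percentiles 79.6 and 78.9, so the first 3 were strong parental peaks with no peak called in either resistant list.

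Gained regions of 19q were few, at 13 against 73 on 19p. As a class they ranked much like those of 19p, with a median worse percentile of 27.7 against 28.1. The strongest, chr19:55464242-55465130, had resistant scores of 9.62 and 11.2 at percentiles 72.1 and 65.4, and the next 4 had a worse percentile between 43.5 and 52.8. They lie at chr19:39522073-39523380, chr19:41316689-41317497, chr19:50390754-50391376 and chr19:48901314-48901992.

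Among shared regions, the highest on 19p was chr19:13956668-13966757, 10090 bp wide, with scores of 63.2, 74.2, 56.3 and 127 in the 4 lists. It stood at percentile 99.3 or above in each. The next were chr19:14115609-14118499 and chr19:8453832-8456895, at 99.2 and 99.1 or above. On 19q the highest was chr19:39337912-39340822, with scores of 47.6, 34.9, 34.9 and 49.2 and a lowest percentile of 96.3. It was followed by chr19:29702874-29704298 and chr19:42363873-42365876, with lowest percentiles of 96.0 and 95.3. The lowest percentile of each of these 3 fell in a resistant list.

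At the limits of the arms the last 2 regions of 19p were chr19:23577286-23578372, shared, and chr19:23869332-23869714, found in resistant replicate 2 alone with a score of 5.82. The 3 regions between the limits were chr19:24215903-24217213 and chr19:24269876-24270975, both shared, and chr19:24237622-24237927, found in parental replicate 1 alone. The first 2 regions of 19q were chr19:28284013-28285006, missing in resistant replicate 2 only, and chr19:28285363-28285727, found in parental replicate 1 alone. The members next to the limits included no gained or lost region.

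Within 100 kb of 41.7 Mb, where AXL lies, there were 9 regions, of which 4 were shared, 0 gained and 0 lost, and 5 were held by 1 parental library each. The widest, chr19:41724177-41733589, had scores of 21.1 and 17.3 in the parental libraries, at percentiles 88.5 and 86.4 of their lists, and 10.2 and 15.3 in the resistant ones, at 73.8 and 74.6. The strongest, chr19:41770199-41773495, had 43.3 and 23.1 in parental libraries and 27.4 and 45.8 in resistant ones, all at percentile 91.9 or above. The remaining 2 shared regions were chr19:41735184-41737490, with scores between 2.99 and 7.55, and chr19:41768531-41769616, with scores between 12.2 and 20.7. The 4 shared regions near AXL thus kept a peak in both lines. Of these, chr19:41724177-41733589 and chr19:41768531-41769616 ranked lower in both resistant lists than in both parental ones. The reverse held for chr19:41735184-41737490, and the ranks of chr19:41770199-41773495 overlapped between the lines. The 5 single-library regions were all parental, as were 297 of 420 such regions on the whole of 19q. On that arm 1.25% of regions were gained and 5.86% lost.

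RNA gave a separate reading of the arms. Of 12792 genes tested, 411 were placed on 19p and 477 on 19q from their order along the chromosome. With edgeR's quasi-likelihood test and Benjamini-Hochberg adjustment over all genes at 0.05, 15 genes of 19p rose and 7 fell in the resistant line, and 7 of 19q rose and 31 fell. Over all genes 2.96% rose and 3.41% fell (6.37% either way), against 3.65% and 1.703% on 19p and 1.47% and 6.50% on 19q. Scaled by library totals instead of TMM, the calls were 30 to 6 on 19p and 7 to 26 on 19q, while over all genes 4.15% rose and 2.92% fell and the median log2 fold change moved from 0.02 to 0.0996. Calls depended on single libraries: leaving out resistant replicate 1 gave 240 rises and 35 falls on 19p and 44 and 176 on 19q, and leaving out resistant replicate 2 gave 95 and 47 on 19p and 11 and 221 on 19q. Calls over all genes grew as well, to 25.99% higher and 26.8% lower in the first case and 15.9% and 19.1% in the second. Without parental replicate 1 the calls were 11 and 4 on 19p and 5 and 12 on 19q, and without parental replicate 2 they were 10 and 5, and 4 and 9. Over all genes 1.17% and 1.07% then rose and 2.05% and 2.003% fell.

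Beyond the called genes, most genes of an arm leaned the same way. The log2 fold change, resistant over parental, was above 0 for 323 of the 411 genes of 19p (78.6%) and below 0 for 372 of the 477 of 19q (78.0%). Its median was 0.30 on 19p and -0.38 on 19q, against 0.02 over all genes. Both resistant libraries lay above both parental ones for 222 genes of 19p (54.0%, against 30.9% of all genes) and below them for 51 (12.4%, against 29.7%). On 19q both lay above for 34 genes (7.13%) and below for 287 (60.2%).

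The size of the lean differed between the resistant libraries. The median difference of 19p genes from the parental mean on the log2 scale was 0.14 for the first resistant library and 0.43 for the second. For 19q genes it was -0.44 and -0.28. Both libraries were up on 19p and down on 19q. The long-arm median minus the short-arm median was -0.01 and 0.01 in parental libraries and -0.59 and -0.71 in resistant ones. The 2 parental values mirror each other around 0 by construction, since differences were taken from the parental mean. They are not an independent baseline. The gap between lines of -0.65 was put to a two-sided exact permutation test (p = 0.333, n = 2 per line). The test cannot decide, since 0.333 is the smallest p that 2 against 2 libraries allow and the values were centred on the parental line. Without resistant replicate 2 the 19p median dropped to 0.13, and without resistant replicate 1 it was 0.43.

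In gene order the lean extended over nearly the whole of each arm. Of 9 windows of up to 50 neighbouring tested genes on 19p, 8 had a median above 0, between 0.20 and 0.43, and in these 8 both resistant libraries were above the parental mean. The exception was the window of 11 genes next to the centromere, from ZNF714 to ZNF254, with a median of -0.46, which rests on few genes. All 10 windows of 19q had a median below 0, from -0.19 (UQCRFS1 to SDHAF1, next to the centromere) to -0.63 (ZNF552 to MZF1, 27 genes at the end of the arm). The highest window of 19p ran from DNMT1 to ZNF136 and held 6 of the 15 rises of that arm.

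**Figure D4:**
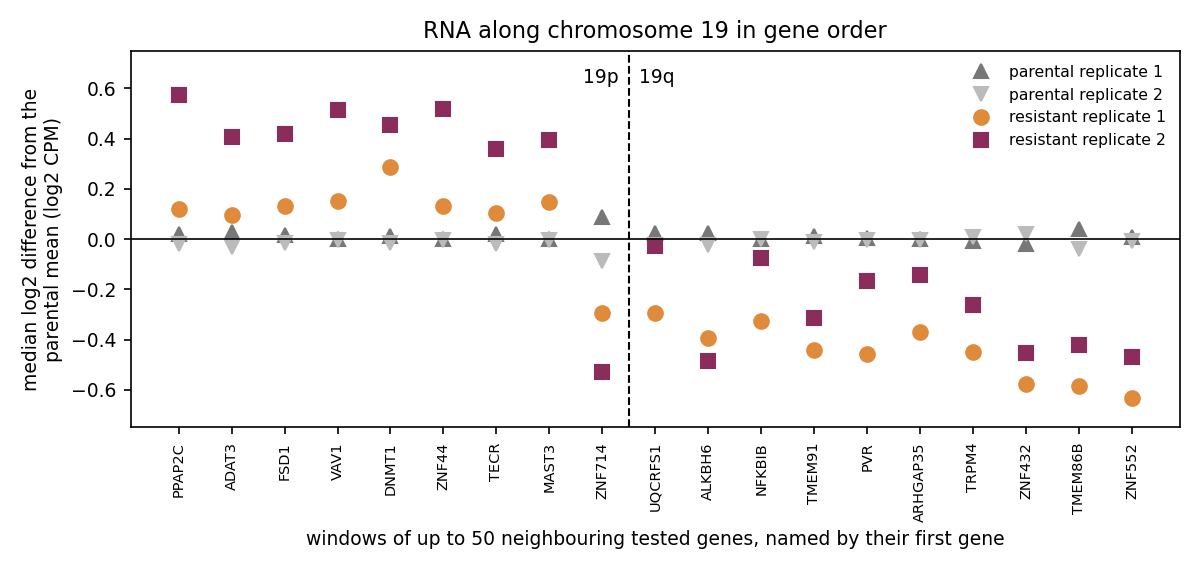
Median difference in log2 CPM from the parental mean for windows of up to 50 neighbouring tested genes in gene order, for each of the 4 RNA libraries; the dashed line separates 19p from 19q. Resistant libraries lie above 0 in 8 of 9 windows of 19p, with the 11 genes from ZNF714 as the exception, and below 0 in all 10 windows of 19q.

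Among the rises of 19p, S1PR5, a receptor for sphingosine-1-phosphate, stood at 2.24 and 3.68 CPM in parental and at 13.3 and 33.2 in resistant cells. Groups that do not overlap were a condition for naming, and the resistant pair differed widely (log2 fold change 2.96 ± 0.52 SE, edgeR adjusted p = 0.0321). ACP5, the tartrate-resistant acid phosphatase, rose from 3.12 and 3.005 to 22.8 and 17.4 CPM (log2 fold change 2.71 ± 0.25). CAMSAP3, which binds the minus ends of microtubules, rose from 4.28 and 4.65 to 16.9 and 22.5. SEMA6B, a transmembrane semaphorin, and PRDX2, a peroxiredoxin that removes hydrogen peroxide, rose by 1.73 and 1.498 on the log2 scale. DNM2, the membrane-scission GTPase dynamin 2, was the most abundant gene among the rises of 19p and was chosen after its value was seen. It stood at 252 and 238 CPM in parental libraries and at 519 and 602 in resistant ones.

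The falls of 19p included CERS1, a ceramide synthase that shares a transcript with GDF1 and is uncertain for that reason, at 18.6 and 19.8 against 4.46 and 3.81 CPM. GDF1 itself was at 0 in both parental libraries and at 1.36 and 4.89 CPM in the resistant ones (edgeR adjusted p = 0.0596), and whether reads moved between them was not tested. ZSWIM4 and NFIX, the latter a transcription factor of the nuclear factor I family, fell by 1.07 and 0.77 on the log2 scale. Neither kept its call when either parental library was left out, with edgeR adjusted p between 0.1002 and 0.486. The remaining 4 falls of the arm were FUT5, a fucosyltransferase, and the zinc finger genes ZNF626, ZNF43 and ZNF737, named after their values were seen. Each had at most 5 estimated counts in a resistant library, and ZNF626 had 16 and 18 counts in parental libraries and 0 in both resistant ones. Reads of such similar zinc finger genes may be split between copies, so these values are uncertain.

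On 19q the largest fall under the naming rule was that of CCDC106, at 22.2 and 25.5 CPM in parental and 0.970 and 1.32 in resistant cells (log2 fold change -4.38 ± 0.27 SE, edgeR adjusted p = 0.00234). KCNN4, a calcium-activated potassium channel, stood at 31.2 and 26.9 CPM against 2.97 and 3.26. The zinc finger gene ZSCAN18 fell from 20.1 and 21.5 to 5.82 and 4.89. EMC10, a subunit of the ER membrane protein complex, fell by 1.60 and PLAUR, the urokinase receptor, by 1.53 on the log2 scale. That both resistant libraries lay below both parental ones in these 5 was a condition of the naming rule.

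A few genes of 19q went against their arm. CEBPA, a transcription factor of epithelial and myeloid differentiation, rose from 3.02 and 2.04 to 13.2 and 12.1 CPM. APOE, the lipid-carrying apolipoprotein, rose from 86.6 and 85.1 to 244 and 361. ATF5, a stress-response transcription factor, and BLVRB, a biliverdin reductase, rose by 0.82 and 0.77 on the log2 scale. BLVRB was close to the threshold (edgeR adjusted p = 0.0482), and neither it nor ATF5 kept its call without either parental library. The other 3 rises of the arm were MYH14, a nonmuscle myosin heavy chain, KCNK6, a potassium channel, and C5AR1, the receptor for complement C5a, of which the last 2 were named after their values were seen.

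Known regulators and enzymes of each arm were followed in 2 lists. Of 29 tested members of the 19p list 1 rose (PRDX2), 0 fell and 28 did not pass, with a median log2 fold change of 0.33. The 1 rise is 3.45% of the list, near the 2.96% of all genes. Both resistant libraries lay above both parental ones for 18 of them (62.1%, against 30.9% of all genes) and below for 5 (17.2%, against 29.7%). Of 34 tested members of the 19q list 4 rose (MYH14, CEBPA, APOE and BLVRB), 2 fell and 28 did not pass. The rises are 11.8% of the list, against 2.96% of all genes and 1.47% of 19q. The falls are 5.88%, against 3.41% and 6.50%. Both lists were chosen with earlier results of these data known. The median of the 19q list was -0.28, and both resistant libraries lay below for 21 (61.8%) and above for 6 (17.6%). On the whole arms the shares were 54.0% above and 12.4% below for 19p, and 60.2% below and 7.13% above for 19q. The 2 that fell were PLAUR and LTBP4, which binds latent TGF-beta and stood at 725 and 692 CPM in parental and 370 and 383 in resistant cells. LTBP4 lost its call without parental replicate 1 or parental replicate 2 (edgeR adjusted p = 0.351 and 0.277). UHRF1 of the first list and APOC1 of the second were not among the genes tested.

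Zinc finger genes were counted on each arm. Of 138 tested genes of 19q with a numbered ZNF symbol, 0 rose and 6 fell. The falls are 4.35%, near the 3.41% of all genes and below the 6.50% of 19q, and 2.96% of all genes rose. Both resistant libraries were below both parental ones for 103 (74.6%, against 29.7% of all genes) and above for 1 (0.725%, against 30.9%). Their median log2 fold change was -0.54. The other 339 tested genes of 19q had a median of -0.27, with 7 rises (2.06%) and 25 falls (7.37%). The lean of the arm was thus also present without zinc finger genes. On 19p the 50 ZNF genes had a median of 0.04, with 1 rise (2%) and 3 falls (6%). Both resistant libraries were above for 13 (26%) and below for 14 (28%), so these genes showed no common direction. The other 361 genes of 19p had a median of 0.33. The difference between zinc finger genes of the arms was not tested.

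AXL stood at 211 and 217 CPM in parental and at 152 and 139 in resistant cells, so the lines did not overlap. Its log2 fold change of -0.56 ± 0.14 SE missed the threshold (edgeR adjusted p = 0.0706). Among the alternatives with all 4 libraries AXL passed only with DESeq2's own test (adjusted p = 0.0472). It missed with edgeR under the replicate block (adjusted p = 0.0915) and under library totals (0.0990). With 1 library left out the log2 fold change ran from -0.62 to -0.51. Of its 16 nearest tested neighbours, 8 on each side, 0 were called in either direction, which at 6.37% of all genes called is near the background. Both resistant libraries lay below both parental ones for 9 of them (56.3%, against 60.2% on the whole of 19q) and above for 3, and the median log2 fold change was -0.24. HNRNPUL1, an RNA-binding protein next to AXL, stood at 250 and 247 against 183 and 168 CPM (log2 fold change -0.50). NUMBL, an adaptor of the Numb family, had the lowest fold change of the neighbours, -0.74, and an adjusted p of 0.0504 with edgeR.

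TGFB1, which encodes the cytokine TGF-beta 1, stood at 95.6 and 95.3 CPM in parental and 81.6 and 137 in resistant cells, so the lines overlapped. EGLN2, an oxygen-sensing prolyl hydroxylase, stood at 93.2 and 85.9 against 69.95 and 81.3. SNRPA, a U1 snRNP protein, was higher in both resistant libraries, at 73.1 and 101 against 62.02 and 72.1 CPM. The difference of AXL was within the range from -0.74 to 1.20 of its neighbours, but below their median of -0.24. The upper end is CYP2S1, a weakly expressed gene at 0.292 and 0.969 CPM in parental and 1.23 and 1.71 in resistant cells. The next highest neighbour was SNRPA, at 0.38. Reads of neighbours that overlap or run together, such as RAB4B and EGLN2 or B9D2 and TMEM91, may be split between them.

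**Figure D5:**
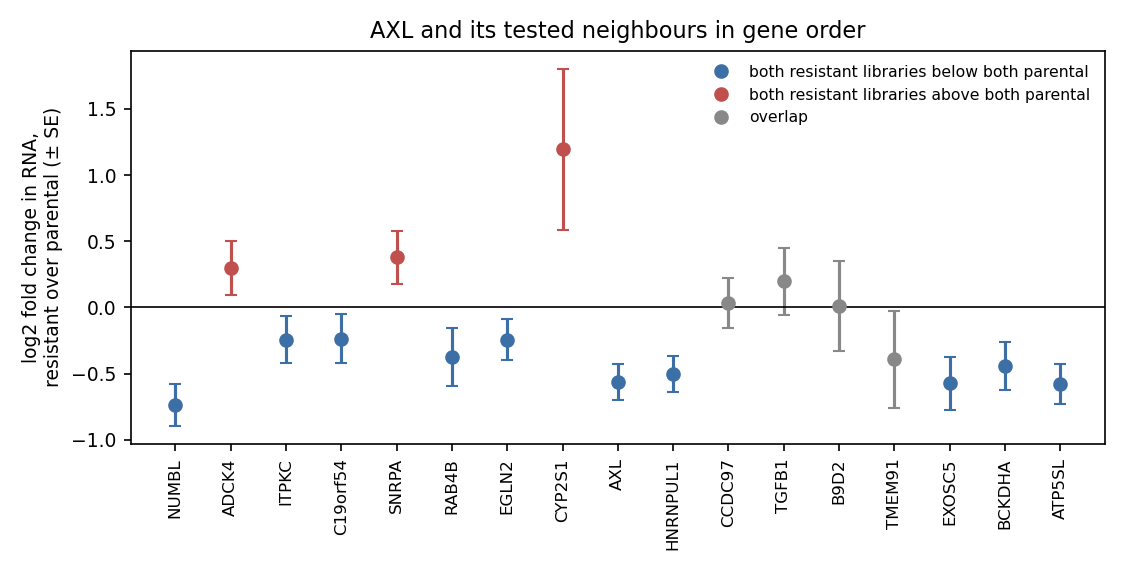
Log2 fold change in RNA, resistant over parental, with its standard error, for AXL and its 16 nearest tested neighbours in gene order; colours show whether the 2 resistant libraries lie below, above or among the 2 parental ones. AXL at -0.56 sits among 9 neighbours that are lower in both resistant libraries, while CYP2S1, ADCK4 and SNRPA are higher in both.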

How the data were processed

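The deposited peak lists give positions and 1 score per peak for each library, per the files themselves. What the score measures, which caller made the peaks, and whether inputs were used is not given in the sources used here. STAR, RSEM, DESeq2 1.40.2, GRCh38 and hg19 are named, with no role, per the submitters' processing notes. Coordinates were read as hg19, since 92 chromosome 19 peaks begin beyond the last gene of that chromosome in GRCh38. The authors' RSEM estimated counts, deposited for 20114 symbols, were rounded (3.16% were fractional). Chromatin was fixed with 1% formaldehyde (10 min), per the labels' protocols.

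Samples were grouped by title. Regions were built with Python 3.11.15 and pandas 2.3.3. RNA was scaled by TMM, filtered with filterByExpr and tested over all genes with edgeR 4.0.16 (R 4.3.3), with line as the only term. DESeq2 1.42.0 was an alternative. The edgeR step, tested on simulated data with 199 of 12689 genes changed 4-fold, recovered 196 with 8 false calls. The simulated counts had the same dispersion for every gene, so this checks the code and not the power or error on these data. Arms of genes come from gene order in RefSeq (GRCh38.p14), split at the widest gap; no coordinates were converted between builds, and no gene was assigned to a region. Of 12792 tested genes 12593 matched the table.

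Members, lists, rules and tests were chosen with earlier results of these data known. Named regions are, per arm, the 5 gained and 5 lost with the highest worse percentile, 3 shared, and those near AXL. Named genes are AXL, up to 5 rises and 5 falls per arm at a mean log2 CPM of 2 or more with lines that do not overlap, 8 neighbours on each side of AXL, and up to 4 called members of each list per direction.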

Additional observations from a re-analysis of the deposited data

How the results depend on the processing

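The alternatives kept more gained than lost regions on 19p in 8 of 9 cases and more lost than gained on 19q in 9 of 9. With a score of 5 or more, 19p had 46 gained and 7 lost regions. The 52367 best peaks of each list gave 13 lost regions on 19p and merging within 500 bp gave 14. Where peaks had to cover 50% of a region, 147 were shared on 19p and 117 on 19q. With 1 library left out, 19p had 101 to 311 gained, 33 to 108 lost and 374 to 429 shared regions, and 19q had 31 to 75, 80 to 235 and 333 to 404. Such counts can only rise above the main ones, since fewer libraries must hold or lack a peak. At a score of 5 or more the median score (parental replicates 1 and 2, resistant replicates 1 and 2) became 11.4, 10.9, 9.57 and 13.5 on 19p and 11.8, 11.1, 8.80 and 12.4 on 19q, since weak peaks were removed. The median percentile then became 58.5, 57.5, 53.4 and 58.2 on 19p and 59.7, 58.4, 48.9 and 54.1 on 19q, in the same order.

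In RNA, library totals gave 30 genes higher on 19p. DESeq2 gave 33 higher and 12 lower on 19p and 52 lower on 19q. A threshold of 0.01 left 1 higher and 2 lower on each arm. With a replicate block, 19p had 50 higher and 14 lower genes and 19q had 76 lower. The replicate numbers are not stated to pair libraries, and deviations of same-numbered libraries had a correlation of -0.0464 across genes, so the block was not used elsewhere. With 1 library left out, 19p had 10 to 240 genes higher and 4 to 47 lower and 19q had 4 to 44 and 9 to 221. The single library left in a line was then given the spread of the other line. The median log2 fold change ran from 0.13 to 0.43 on 19p and from -0.47 to -0.28 on 19q. Of named genes, those that changed sign were all neighbours of AXL: B9D2 (-0.0058 with no filter beyond 1 count, -0.00035 with the replicate block, and -0.33 to 0.29 with 1 library left out), CCDC97 (-0.15 to 0.22 with 1 left out), TMEM91 (-0.91 to 0.0082) and TGFB1 (-0.23 to 0.53). The causes of these shifts were not tested. Number of libraries, at 2 per line, limits the calls of single genes, and read depth behind each peak is unknown.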
